A study of Mus musculus with 12 samples.

Results

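The nuclear factor I (NFI) genes Nfia, Nfib, Nfic and Nfix were taken by their symbols from the gene list of the count matrices, and all 4 were found among 55335 genes. Nuclei came from flash-frozen cortex of 12 mice at postnatal day 21 of the line MYT1L S710fsX, in which a frameshift disrupts 1 copy of Myt1l, a zinc finger transcription factor of neurons. The 6 WT and 6 Het animals, 3 males and 3 females of each genotype, were on a C57BL/6J background. Both genotypes had also received AAV9 with the transposase hyPB and the reporter H2b-tdT-SRT in the ventricles soon after birth. The animals came from several litters, the litter of each animal was not given in the labels, and homozygotes die at birth and were not part of the series.

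NFI proteins bind DNA as dimers of any pair of family members, at a palindrome with TTGGC at its left end and GCCAA at its right end, and they activate some genes and repress others. In the developing spinal cord Nfia and Nfib act downstream of Sox9 in the switch from making neurons to making glia, and mice without Nfia, Nfib or Nfix have defects of the corpus callosum and the hippocampal dentate gyrus. Nfib is also known from deep cortical layers, Nfix from hippocampal stem cells and muscle, and Nfic from the roots of teeth.

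In mm10, Nfia lies on chr4:97772734-98118874 on the plus strand and Nfib on chr4:82290173-82705750 on the minus strand. Nfic lies on chr10:81396186-81455635 and Nfix on chr8:84699876-84800344, both on the minus strand. E130114P18Rik on the opposite strand overlaps the start of Nfia and the antisense gene Gm11266 lies within Nfib, with 683.9 and 489 UMIs (unique molecules counted) in all nuclei against 25448 for Nfia and 42937 for Nfib. The counting of strand was not given in the sources used here, so a small share of reads of these neighbours cannot be told apart from the members.

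Promoter sequence is shown for Nfix alone, the member whose level differed between the genotypes in excitatory nuclei. The windows, from RefSeq for GRCm38.p6, run from 250 bases before a transcript start to 50 bases after it, and the capitals mark TTGGC or its reverse GCCAA, the core of the NFI site, and AAGTT or its reverse AACTT, the core of the sites that MYT1-family zinc fingers bind. The first window lies at chr8:84780033-84780332 and the second at chr8:84772826-84773125, both on the minus strand and printed 5′ to 3′. Both lie inside Nfix as placed above, away from its 5′ end at chr8:84800344.
Nfix window 1: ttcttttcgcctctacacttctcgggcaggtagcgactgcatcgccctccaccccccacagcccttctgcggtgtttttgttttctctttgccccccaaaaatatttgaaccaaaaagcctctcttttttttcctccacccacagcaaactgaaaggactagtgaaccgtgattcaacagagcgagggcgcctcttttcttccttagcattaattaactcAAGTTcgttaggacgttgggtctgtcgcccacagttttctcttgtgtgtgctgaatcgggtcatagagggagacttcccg
Nfix window 2: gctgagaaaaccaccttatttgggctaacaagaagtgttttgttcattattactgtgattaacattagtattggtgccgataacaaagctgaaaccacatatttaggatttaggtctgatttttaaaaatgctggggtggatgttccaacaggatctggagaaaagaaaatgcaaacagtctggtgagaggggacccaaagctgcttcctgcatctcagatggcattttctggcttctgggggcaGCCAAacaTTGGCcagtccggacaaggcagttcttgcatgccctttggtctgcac

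The first Nfix window held 1 AAGTT core and no TTGGC core, and the second held 2 NFI cores in opposite orientations and no AAGTT core. The other Nfix windows, at chr8:84775779-84776078 and chr8:84773361-84773660, held 1 NFI core each and also lie inside the gene. The Nfia window, at chr4:97581693-97581992, held neither core and lies ahead of the Nfia start given above, within E130114P18Rik (chr4:97568133-97778078). The Nfic window, at chr10:81427124-81427423, held 2 AAGTT cores and lies inside Nfic, away from its 5′ end at chr10:81455635. Across all 32851 windows, 46.7% held an NFI core and 39.3% an AAGTT core, so these matches are common and describe letters only. The full palindrome with 5 bases between the cores stood in 12 windows (0.0365%) and in none of the windows of Nfia, Nfic and Nfix. No window was available for Nfib.

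The matrices held 78743 barcodes, none of them shared between animals, of which 33118 nuclei passed the limits on UMIs, genes and mitochondrial reads and the removal of likely doublets. An animal kept 1551 to 4412 nuclei, with a median of 2970 to 3396 UMIs per nucleus. Nuclei were placed in classes by the UMIs of fixed marker genes, 29663 of 33118 at the first level, and 2911 fell below the posterior of 0.9 that was asked for. Classes are named for their markers and are to be read as "like" that type: 18547 nuclei were excitatory-like and 7420 GABAergic-like, and finer classes hold 11421 and 4552 of these. Of 21 finer classes compared, 19 had at least 10 nuclei in all 12 animals, and the L6b-like and fibroblast-like classes in 8. The small endothelial-like and ependymal-like classes, the Sncg class with 2 raised markers, and a class sought as immature GABAergic, whose leading genes (Adamts19, Frmd7, Cpa6) were not its markers, were not compared.

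Levels are given in CPM, UMIs of the gene in a class of nuclei of 1 animal, scaled to counts per 1e6 UMIs of those nuclei. Neuronal markers were detected in several glial classes. In microglia-like nuclei the excitatory marker list held 0.587 per mille of UMIs, against 1.39 in excitatory-like and 0.042 in oligodendrocyte-like nuclei, and Myt1l was at 799 ± 99.9 CPM (SD, n = 12). In astrocyte-like and OPC-like nuclei (OPC, oligodendrocyte precursor cell) Myt1l was at 523 ± 228 and 473 ± 102 CPM, and in oligodendrocyte-like nuclei at 23.4 ± 14.4. The part of these reads in the NFI levels of the glial classes was not tested.

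**Figure D1:**
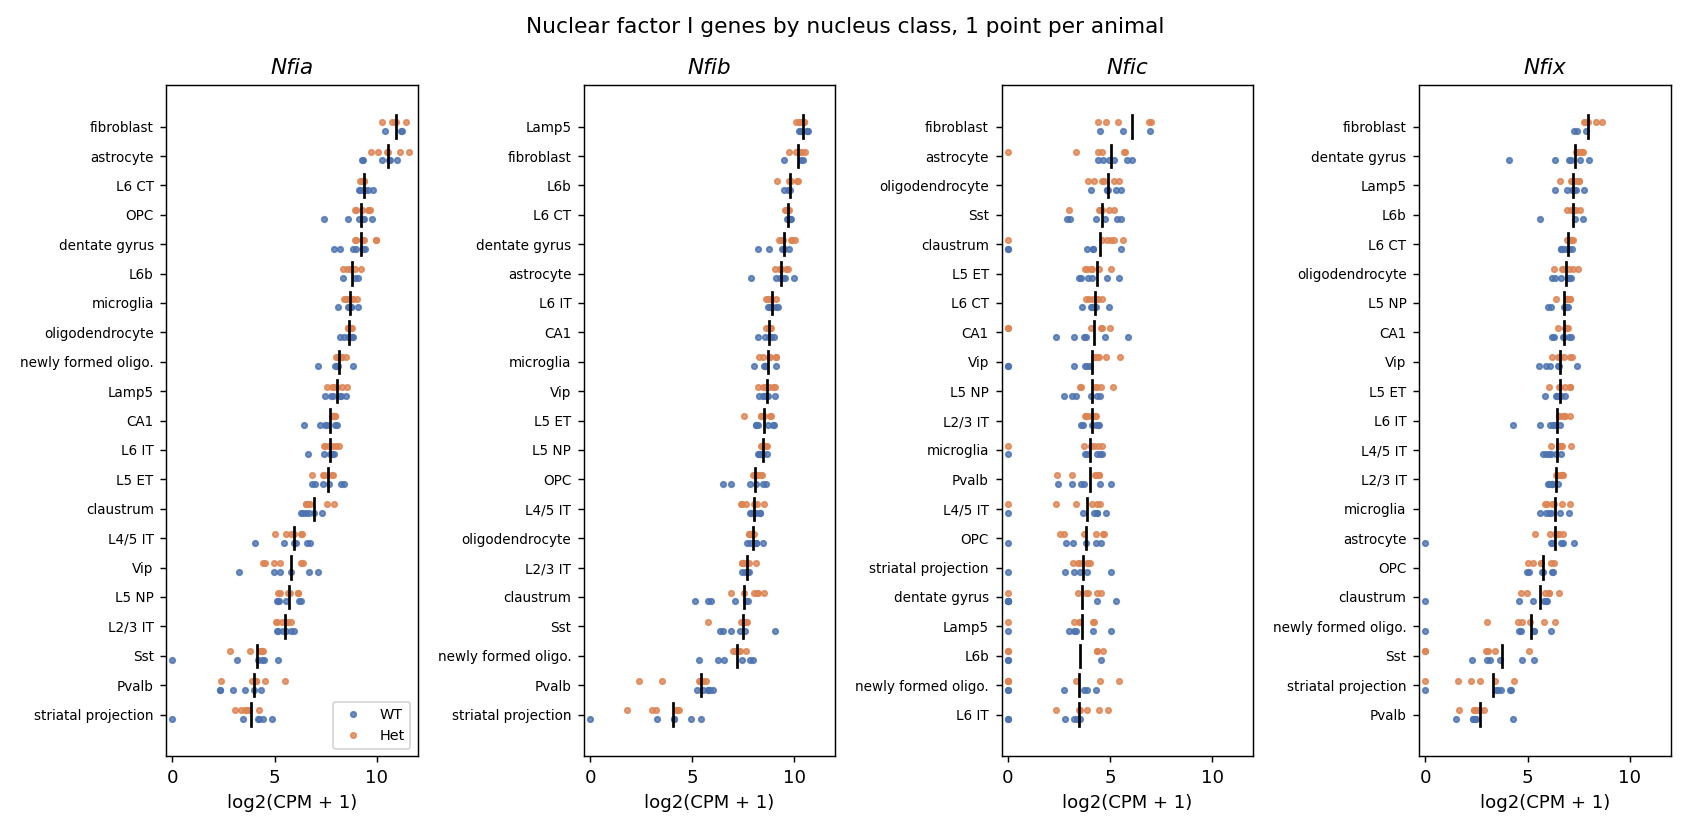
Level of each NFI gene by class on a log2(CPM + 1) axis, classes ordered by mean level (black bar) and 1 point per animal with at least 10 nuclei (blue WT, orange Het). Nfia, Nfib and Nfix span a wide range of levels, with Pvalb and striatal projection nuclei at the low end, while the points of Nfic overlap between most classes.

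Nfia, which in glial precursors promotes astrocyte genes, was highest in fibroblast-like and astrocyte-like nuclei. In fibroblast-like nuclei it ranged from 1204.5 to 2778 CPM with a median of 1949 over 8 animals, and in astrocyte-like nuclei from 628 to 3049 with a median of 1459 over 12. The astrocyte-like level exceeded that of L6 CT nuclei, next in the order at 657 ± 93.0 CPM (SD, n = 12), in 12 of 12 animals. The difference was 1.03 ± 0.66 (SD) on the log2 scale (exact sign-flip permutation test, two-sided, p = 0.000488, the smallest possible, adjusted p = 0.0195). This order depended on the nuclei taken: astrocyte-like Nfia was 1967 ± 606 CPM (n = 10) under a stricter class assignment, with Myt1l at 275 CPM, but 466 ± 106 (n = 12) without upper limits on UMIs and genes, with Myt1l at 996, which is below the 623 ± 62.4 of L6 CT nuclei.

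Nfia differed widely among neurons. Among excitatory classes it was highest in L6 CT, corticothalamic neurons of layer 6, followed by dentate gyrus nuclei at 590.2 ± 235 CPM and L6b nuclei at 444 ± 101 (SD, n = 12 and 8). Without upper limits on UMIs and genes the dentate gyrus level was 64.1 ± 43.0 CPM (n = 12), and the stricter assignment left 1 animal with enough nuclei there, so that its place in the order depended on the nuclei taken. It was low in L4/5 IT at 61.6 ± 26.1, L5 NP at 51.2 ± 16.9 and L2/3 IT at 43.8 ± 9.52 CPM (IT, intratelencephalic, NP, near-projecting neurons). Among GABAergic classes only Lamp5 interneurons stood above 100 CPM in every animal, with 177 to 371 CPM, while Sst, Pvalb and striatal projection nuclei had means of 16.5, 14.7 and 13.6 CPM. The steps from claustrum to L4/5 IT (adjusted p = 0.0488) and from L2/3 IT to Sst nuclei (adjusted p = 0.026, exact sign-flip permutation tests) also passed, and the other 17 neighbouring steps of Nfia did not. Under the stricter assignment these 2 steps had adjusted p of 0.199 (n = 8) and 0.109 (n = 10), and without doublet removal the first had 0.0846.

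Nfib, which acts with Nfia in gliogenesis and in the maturation of deep-layer neurons, was highest in a GABAergic class. Lamp5 nuclei, interneurons that include the neurogliaform type, held 1084 to 1602 CPM with a median of 1325 over 12 animals. Fibroblast-like nuclei followed at 1166 ± 258 CPM (SD, n = 8), then L6b at 880.1 ± 196 (n = 8) and L6 CT at 826 ± 50.6 (n = 12). At most 8 animals enter the steps between these neighbours, too few to reach an adjusted p under 0.05 over the 80 steps, so their order was not resolved.

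The other interneuron classes stood far below Lamp5. Nfib was at 402 ± 77.2 CPM in Vip, 180.3 ± 121 in Sst and 41.7 ± 17.8 in Pvalb nuclei (SD, n = 12). The Sst level was 34.9 ± 46.8 CPM (n = 10) under the stricter assignment, close to the 35.6 ± 27.0 of Pvalb nuclei, and 109 ± 44.4 (n = 12) without upper limits. It was lowest in striatal projection nuclei, with 0 to 41.6 CPM and a mean of 15.4. The step from newly formed oligodendrocyte-like nuclei, at 148 ± 60.4 CPM, down to Pvalb nuclei was the only one of 20 neighbouring steps of Nfib that passed (1.90 ± 1.35 on the log2 scale, higher in 12 of 12 animals, adjusted p = 0.0195, exact sign-flip permutation test).

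Nfix, the member with known roles in stem cells and muscle, was highest in fibroblast-like nuclei, with 152 to 397 CPM and a median of 228 over 8 animals. Dentate gyrus, Lamp5, L6b and L6 CT nuclei followed with means of 162, 149.7, 148.5 and 127 CPM. Without upper limits the dentate gyrus mean was 75.3 CPM, below Lamp5 at 147, L6b at 121 and L6 CT at 111. Its lowest levels were in Sst, striatal projection and Pvalb nuclei, at means of 12.6, 8.83 and 5.35 CPM (Sst 0.60 under the stricter assignment), and no neighbouring step of Nfix passed the test.

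Nfic, the member least tied to the brain, was low throughout. Its class means ran from 10.3 CPM in L6 IT to 66.3 ± 48.6 (SD, n = 8) in fibroblast-like nuclei, and L6b nuclei held 4 Nfic UMIs in the 8 animals with enough nuclei. Oligodendrocyte-like nuclei, with 106 UMIs, had 14.1 to 46.0 CPM and a median of 28.1 over 12 animals, against 10.8 to 21.1 in L2/3 IT nuclei with 207.5 UMIs. Of all 80 neighbouring steps of the 4 genes 4 passed, and without upper limits on UMIs and genes 44 passed, so how much of the fine order was resolved depended on the nuclei taken.

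Members were compared with each other per kilobase of gene, introns included, a scale that takes UMIs to grow with gene length, which was not tested. Nfia led in astrocyte-like nuclei with 4.27 CPM per kb against 1.58 for Nfib, 0.805 for Nfix and 0.547 for Nfic. Without upper limits the astrocyte-like levels of Nfia and Nfib were 466 and 405 CPM, in place of 1479.7 and 658, before division by length. In Lamp5 nuclei Nfib led with 3.25 CPM per kb, followed by Nfix at 1.49, Nfia at 0.766 and Nfic at 0.193. In L6 CT nuclei Nfib and Nfia stood at 1.99 ± 0.122 and 1.90 ± 0.269 CPM per kb (SD, n = 12), Nfix at 1.26 and Nfic at 0.307. Per kilobase of exon instead, Nfia stood above Nfib in L6 CT nuclei (60.3 against 55.2 CPM per kb) and above Nfix in Lamp5 nuclei (24.3 against 20.4). On both scales Nfia led in astrocyte-like and Nfib in Lamp5 nuclei, and Nfic was lowest in these 3 classes.

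**Figure D2:**
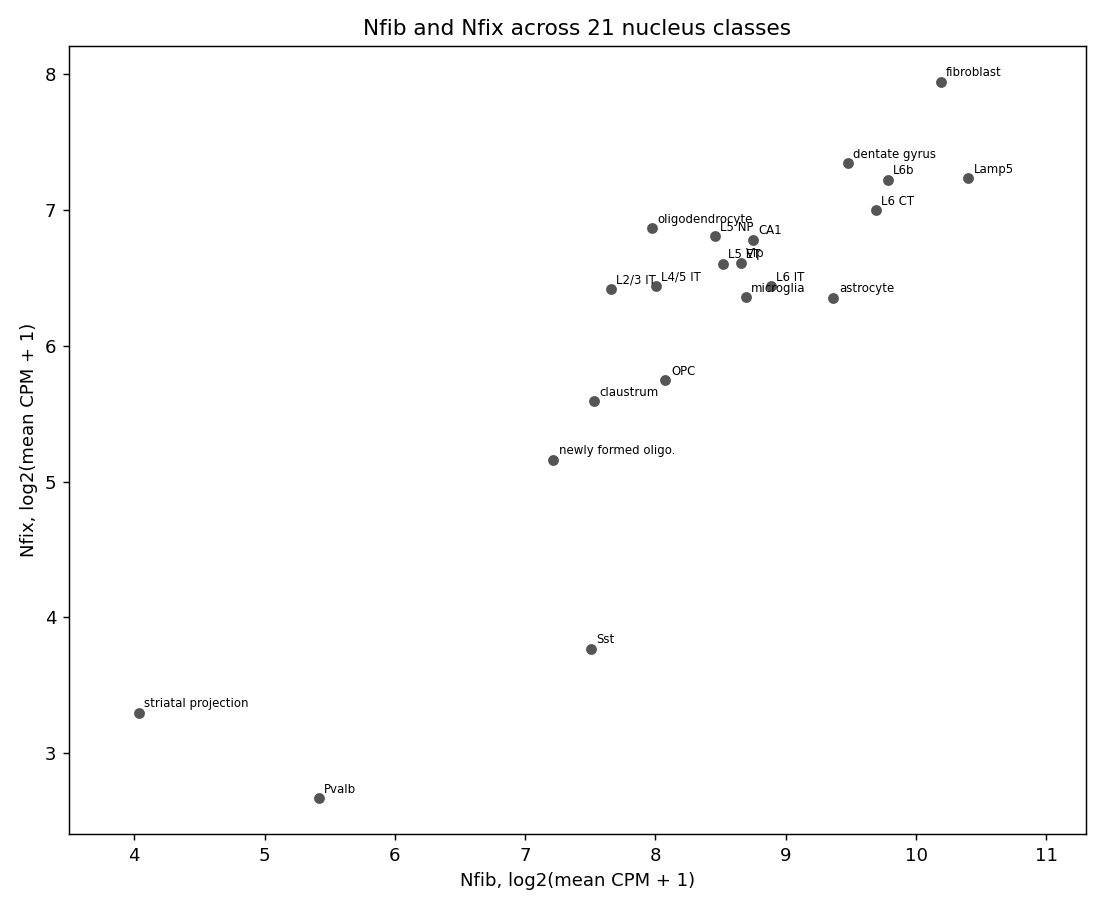
Mean level over animals of Nfib (x axis) and Nfix (y axis) in the 21 classes, both as log2(mean CPM + 1). The classes lie along a rising band (Pearson r = 0.884) with Pvalb and striatal projection nuclei at the low end and fibroblast-like, Lamp5, L6b and dentate gyrus nuclei at the high end.

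Nfib and Nfix had the most similar patterns across the 21 classes, with a Pearson r of 0.884 between their log2(mean CPM + 1) values. Among 10442 genes with at least 20 CPM in a class, each was the other's most similar gene. Nfia correlated with Nfib at 0.745 and with Nfix at 0.716, whereas Nfic correlated with the other members at 0.211 to 0.325. Nfic means rested on few UMIs in many classes, such as 12 in dentate gyrus and 31 in fibroblast-like nuclei, so its correlations are uncertain. The classes come from the same 12 libraries, and the values are a description.

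Outside the family, Sec24d, a coat protein of secretory vesicles, was the next most similar to both Nfib (r = 0.823) and Nfix (r = 0.757). Adcy6, an adenylyl cyclase, and the kinase Stk3 were also among those most similar to Nfib, with r of 0.785 and 0.754, and Nfia, Pcyox1 and Kdsr completed the 5 for Nfix with 0.716, 0.693 and 0.688. The 5 for Nfia were Rnf213 (0.787), Zmiz1 (0.770), Zfp438 (0.762), the corepressor Ncor1 (0.756) and Slc7a6os (0.753). For Nfic they were Pafah2 (0.873), Zrsr1 (0.870), the fatty acid desaturase Scd1 (0.838), Usp19 (0.837) and Plagl1 (0.832), each highest in fibroblast-like nuclei as Nfic was. The limit of few Nfic UMIs holds for these values too.

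The next question was whether loss of 1 functional copy of Myt1l changed the NFI genes. Myt1l itself, in all nuclei, was at 830 to 947 CPM in WT animals with a median of 891, and at 928 to 1008 with a median of 995 in Het animals. The ranges overlapped, and the log2 fold change of Het over WT was 0.14 ± 0.05 (SE, adjusted p = 0.683, edgeR quasi-likelihood test with Benjamini-Hochberg adjustment over all genes). UMIs of both alleles are counted alike, and whether this level bears on the genotype labels was not tested. Genes were called at an adjusted p under 0.05 and a log2 fold change beyond 0.2 in either direction.

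Nfix was higher in Het excitatory nuclei. Its level was 79.6 to 94.1 CPM with a median of 87.7 in the 6 WT animals, and 101 to 119 with a median of 112 in the 6 Het animals. Every Het animal stood above every WT animal, which held for 0.456% of the 13594 genes tested there. The log2 fold change was 0.32 ± 0.06 (SE, 1.25-fold, 95% interval 0.20 to 0.45, adjusted p = 0.034, edgeR). Nfix was the 1 member of 4 called in excitatory nuclei, where 0.118% of genes were called, and by DESeq2 its adjusted p was 0.00173, with 1.03% of 7869 genes called. The study lists Nfix among genes upregulated in Het animals at this age, from tests by cell cluster. The call here is on the sum of all excitatory nuclei, an unlike unit. In the finer classes Nfix was not called (smallest adjusted p = 0.22, edgeR). The mice are the same, so the call is not independent of that report.

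This call rested on several animals and on the choice of nuclei. Leaving out single animals gave log2 fold changes of 0.30 to 0.36 and ended the call in 6 of 12 fits, with adjusted p from 0.0182 to 0.153. The 6 animals were WT male 2 (0.0749), WT female 3 (0.153), Het male 3 (0.0986) and Het females 1, 2 and 3 (0.11, 0.0867 and 0.119). A stricter class assignment (0.29, adjusted p = 0.0902) and nuclei without upper limits on UMIs and genes (0.24, adjusted p = 0.0899) kept the direction without the call.

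The other members were not called in excitatory nuclei. Nfia ranged from 174 to 299 CPM in WT and 214 to 249 in Het animals, and its log2 fold change was 0.03 ± 0.09 (SE, adjusted p = 0.969, edgeR). Nfib had a mean of 419.5 CPM in each genotype, with SDs of 24.4 and 22.5 (n = 6 each), and a log2 fold change of -0.02 ± 0.05 (SE, adjusted p = 0.968). Nfic, with means of 16.6 ± 2.16 CPM for WT and 17.4 ± 2.43 for Het animals (SD, n = 6), had a log2 fold change of 0.07 ± 0.11 (SE, adjusted p = 0.934). The 95% intervals of the 3 differences were -0.14 to 0.20, -0.12 to 0.08 and -0.15 to 0.29 on the log2 scale.

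**Figure D3:**
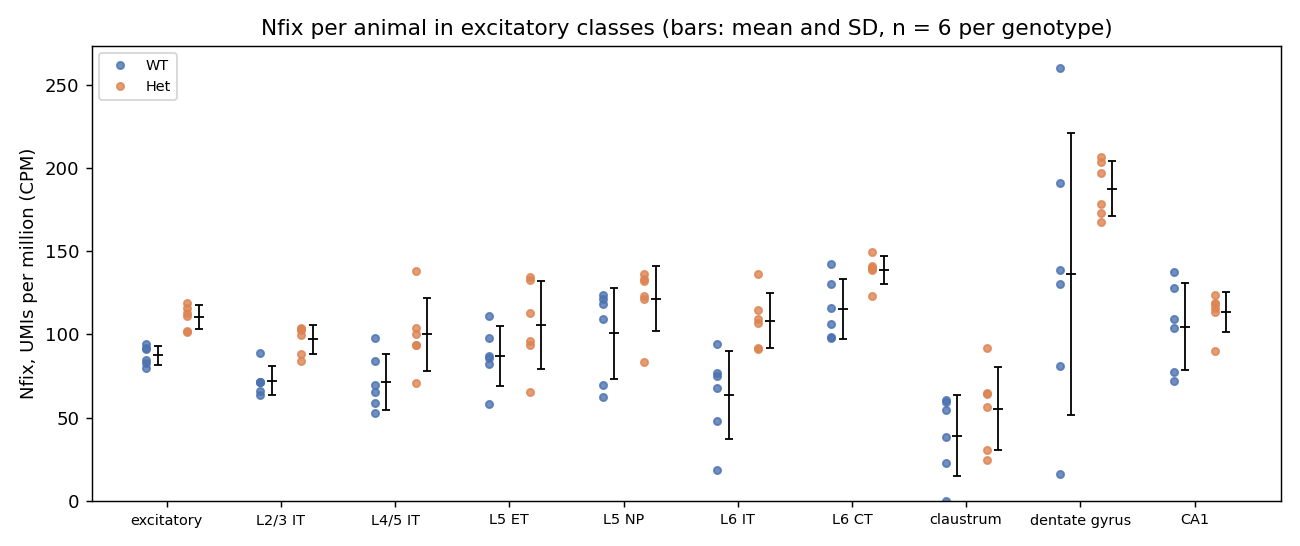
Nfix level in CPM per animal (blue WT, orange Het, 6 each) in all excitatory nuclei and in 9 excitatory classes, with mean and SD as black bars on a linear axis from 0. In all excitatory nuclei the genotypes are apart, at 79.6 to 94.1 and 101 to 119 CPM, whereas in each single class the points of the genotypes overlap.

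Within single excitatory classes the Nfix difference had the same sign but no call. Nfix was tested in 8 of them, and the log2 fold change was above 0 in 8 of 8, from 0.09 to 0.59 with a median of 0.34. The same animals enter each class, so these are not independent. In L2/3 IT nuclei Nfix ranged from 63.8 to 88.5 CPM across WT animals and from 84.3 to 104 across Het animals, with medians of 71.5 and 101. 1 WT animal stood above the lowest Het animal, and the log2 fold change was 0.39 ± 0.11 (SE, adjusted p = 0.22, edgeR, 0.0867% of genes called).

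In L6 CT nuclei Nfix ranged from 97.5 to 142 CPM across WT animals and from 123 to 149 across Het animals. The log2 fold change there was 0.26 ± 0.10 (SE, adjusted p = 0.302, 0.666% of genes called). In L6 IT nuclei the WT animals held 18.7 to 94.3 CPM of Nfix and the Het animals 91.4 to 136, with a log2 fold change of 0.59 ± 0.22 (SE, adjusted p = 0.406). The lowest WT value there was 1 UMI in the 14 L6 IT nuclei of WT female 1. In CA1 nuclei the Het range, 89.7 to 124 CPM, lay inside the WT range of 71.8 to 137, and the log2 fold change was 0.09 ± 0.19 (SE).

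The Nfix level was also computed with a fixed mix of excitatory classes, a weighting chosen after the Nfix value had been seen and limited to nuclei with a finer class. With the 9 classes present in all animals weighted by the same shares, Nfix was at 77.5 to 97.9 CPM with a median of 94.3 in WT and 105 to 127 with a median of 117 in Het animals. The difference was 0.34 on the log2(CPM + 1) scale, and the part of class shares in the Nfix difference was not tested. Among the shares of the excitatory classes, the smallest p for genotype was that of dentate gyrus nuclei, which made up 1.26% ± 0.287 in the WT and 1.75% ± 0.482 in the Het group (SD, n = 6, exact permutation test, p = 0.0671).

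The median UMIs per excitatory nucleus were 3155 to 3454 in WT and 3304 to 3509 in Het animals. The astrocyte list held 0.190 ± 0.014 per mille of the UMIs of excitatory nuclei in WT and 0.186 ± 0.010 in Het animals, and the oligodendrocyte list 0.081 ± 0.017 and 0.086 ± 0.005 (SD, n = 6). The OPC list stood at 0.219 ± 0.012 per mille in WT and 0.202 ± 0.022 in Het animals. By class its mean was lower in Het animals in 5 excitatory classes, among them L2/3 IT (0.207 against 0.162), and higher in 5, among them L6 CT (0.114 against 0.130), L4/5 IT (0.186 against 0.226) and L5 NP nuclei (0.130 against 0.147), and its part in the Nfix values was not tested. Within males WT animals held 86.0 ± 4.35 CPM of Nfix and Het animals 105 ± 5.56, and within females at 88.6 ± 7.84 and 116 ± 3.21 (SD, n = 3). That the sexes each keep the genotypes apart follows from the separation of all 12 animals and is no further support.

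Over all nuclei the WT animals held 66.9 to 82.2 CPM of Nfix and the Het animals 85.3 to 98.7, with medians of 73.6 and 89.5. The animals did not overlap, as for 0.384% of 16658 genes. The log2 fold change was 0.28 ± 0.06 (SE) with an adjusted p of 0.21 by edgeR, which called 0 of 16658 genes (0%) there, 987 of them at an unadjusted p under 0.05. DESeq2 called 28 of 13978 genes (0.2%), Nfix among them with an adjusted p of 0.0284. In bulk sums of this kind, a higher level per nucleus and more nuclei of a class with a high level cannot be told apart.

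**Figure D4:**
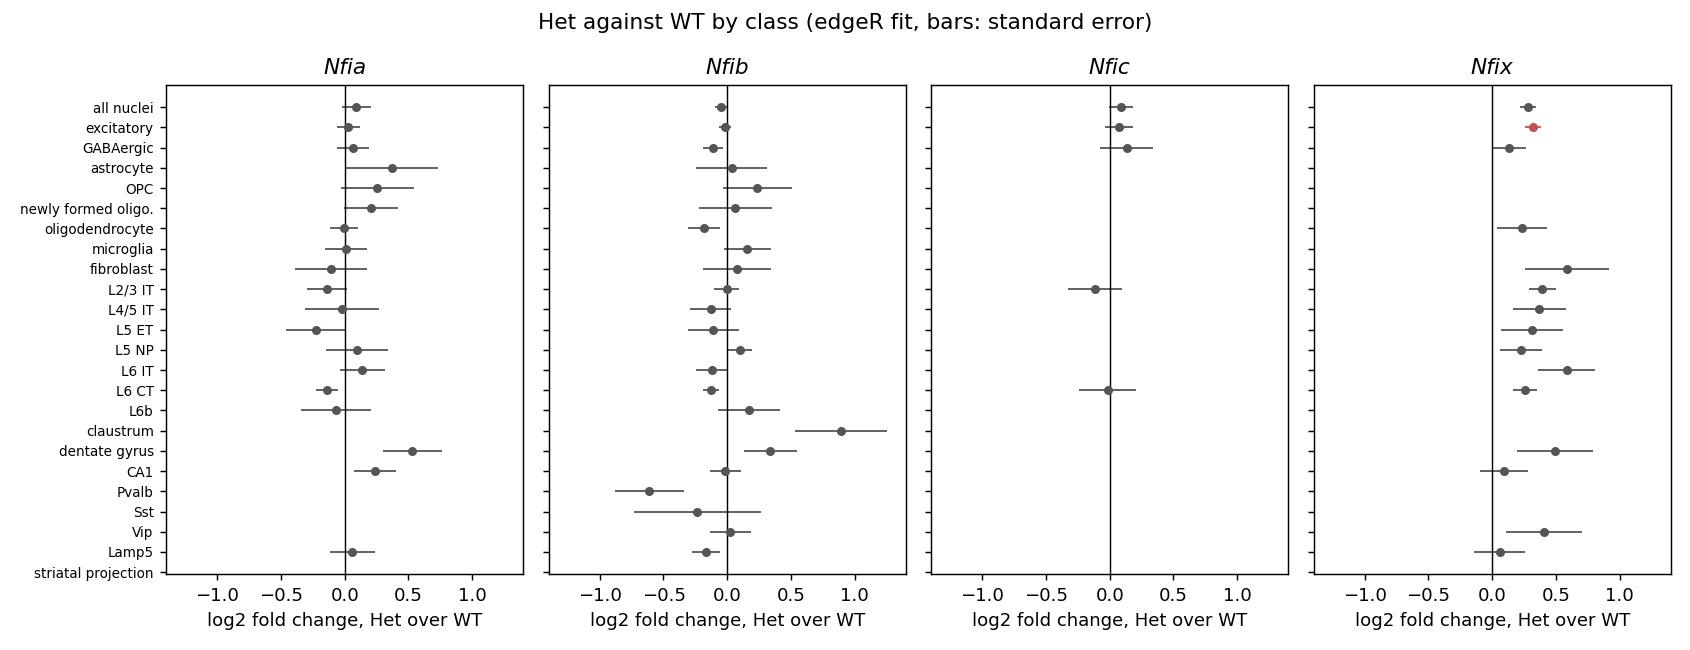
Log2 fold change of Het over WT with its standard error for each NFI gene in all nuclei, in excitatory and GABAergic nuclei and in each finer class where the gene had enough counts. Nfix in excitatory nuclei (red) is the value called, at 0.32 ± 0.06, and the Nfix points lie to the right of 0 while those of Nfia and Nfib fall on both sides.

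In GABAergic nuclei none of the 4 members was called by edgeR or DESeq2, with 0.326% of genes called by edgeR. The WT animals held 29.4 to 48.3 CPM of Nfix and the Het animals 36.1 to 53.3, and its log2 fold change was 0.13 ± 0.13 (SE, adjusted p = 0.973), which turned to -0.030 without upper limits on UMIs and genes. Nfib had a log2 fold change of -0.11 ± 0.08 and Nfia of 0.07 ± 0.12 (SE). Striatal projection nuclei, lowest in Nfib and low in Nfix, were 261 of 3164 GABAergic nuclei in WT and 623 of 4256 in Het animals. The part of class shares in these values and in the comparison that follows was not tested. The effect of genotype on Nfix was not shown to differ between excitatory and GABAergic nuclei: the excitatory minus GABAergic level was 1.15 in WT and 1.34 in Het animals on the log2(CPM + 1) scale, a difference of 0.19 ± 0.13 (SE, exact permutation test, p = 0.169, adjusted p = 0.762 over 12 tests). The comparisons of excitatory with astrocyte-like nuclei and of L6 CT with L2/3 IT nuclei gave no adjusted p under 0.762 for any member either.

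Across the 21 finer classes 0.106% of all gene-class pairs were called, and no NFI gene was called in any of them by edgeR. Nfia was tested in 16 classes, with 9 log2 fold changes above 0 and 7 below, and Nfib in 20, with 10 above and 10 below. Nfix was above 0 in 12 of the 12 classes tested, from 0.06 in Lamp5 to 0.59 in fibroblast-like nuclei, and its median was 0.34. In fibroblast-like nuclei 3 WT animals, all female, were set against 5 Het animals of both sexes. Among classes with too few Nfix counts for a test, the Het mean was lower in astrocyte-like, OPC-like, Pvalb, Sst and striatal projection nuclei. It was higher in newly formed oligodendrocyte-like, microglia-like, L6b and claustrum nuclei. Nfic had enough counts in 2 classes. The median over all genes lay between -0.02 and 0.01 in these classes.

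Of these values, 1 of 16 for Nfia, 2 of 20 for Nfib, 0 of 2 for Nfic and 3 of 12 for Nfix had an unadjusted p under 0.05, against 6.32% of all gene-class pairs, and none was called. Those of Nfix were in L2/3 IT, L6 CT and L6 IT nuclei, with the values given above. In claustrum nuclei Nfib was at 34.3 to 212 CPM with a median of 97.7 in WT and at 118 to 369.8 with a median of 272 in Het animals (log2 fold change 0.89 ± 0.36, SE, adjusted p = 0.375). In Pvalb nuclei the WT animals held 36.2 to 63.3 CPM of Nfib and the Het animals 4.26 to 49.8 (-0.61 ± 0.27, adjusted p = 0.734). In dentate gyrus nuclei the WT animals held 237 to 687 CPM of Nfia and the Het animals 482 to 1009 (0.53 ± 0.24, adjusted p = 0.792). The genotypes overlapped in each of these.

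No member passed a test of sex by genotype in any class. Unadjusted p under 0.05 stood in 2 of 18 classes for Nfia, 3 of 22 for Nfib, 0 of 5 for Nfic and 2 of 14 for Nfix, all nuclei and the broad classes included. That is 7 of 59 pairs of member and class (11.9%), against 4949 of 104415 (4.74%) for all genes, and the same animals enter each class. The smallest adjusted p was 0.152, for Nfib in L5 ET nuclei (extratelencephalic neurons of layer 5). That interaction term was 1.36 ± 0.33 (SE) on the log2 scale. The smallest unadjusted p for Nfia was 0.0034, in excitatory nuclei (-0.44 ± 0.13, SE, adjusted p = 0.699, edgeR). There WT males held 174 to 230 CPM of Nfia and Het males 244 to 249, while WT females held 223 to 299 and Het females 214 to 242. The Nfia fold change near 0 in excitatory nuclei given above averages over the sexes.

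Of 21 genes tied to the family by other work, none was called in excitatory, GABAergic or finer classes by edgeR or DESeq2. Over the finer classes 83 gene-class pairs of the list had enough counts, of which 4 (4.82%) had an unadjusted p under 0.05, against 4066 of 64317 (6.32%) for all genes. In excitatory nuclei 11 were tested, with a median log2 fold change of 0.03 against -0.01 for all genes. By role in excitatory nuclei, the glial targets had 2 of 2 tested above 0, the progenitor targets 2 of 3, the targets in granule neurons 2 of 3, and the upstream genes and partners 2 of 3.

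Among the list, Mmd2, a glial target, had a log2 fold change of 0.32 ± 0.09 in excitatory nuclei (SE, adjusted p = 0.167, edgeR). It was called only when genes with low counts were not filtered. Nr2f1, an orphan nuclear receptor that patterns cortical areas, had values of -0.33 ± 0.13 in excitatory, -0.42 ± 0.17 in GABAergic, -0.54 ± 0.16 in L2/3 IT and -0.58 ± 0.25 in L6 CT nuclei (SE), each uncalled with an adjusted p of at least 0.256. Ezh2, a repressive histone methyltransferase, and the adhesion protein Cntn2 stood at 0.41 ± 0.16 and 0.50 ± 0.19 in L6 CT nuclei, with adjusted p of 0.321 and 0.332. Sox9, a transcription factor of glial precursors, had a log2 fold change of 0.86 ± 0.34 in all nuclei (adjusted p = 0.773), and Zbtb20, a repressor active in astrocyte and hippocampal development, one of 0.22 ± 0.10 in GABAergic nuclei (adjusted p = 0.782), both uncalled.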

How the data were processed

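The deposited matrices hold expected counts, UMIs per gene and nucleus, with 92.5% to 92.9% of entries whole numbers, and the rule behind the fractions is not given in the sources used here. The authors counted with ScaleRna on mm10. The submitters' processing notes name Seurat 4.3.0 and DESeq2 1.38.3.

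The limits were those of the study: a nucleus needed between 800 and 6000 UMIs, between 300 and 3000 genes, no more than 1% mitochondrial reads and log genes divided by log UMIs at or above 0.9. They kept 34862 of 78743 barcodes. The study counts more nuclei at this age after the same limits than all of these barcodes, and the reason was not tested. Doublets were treated differently: the study ran DoubletFinder before these limits, whereas here Scrublet (scanpy 1.11.5) scored the nuclei within them and the top 5% per animal were removed. The alternative without upper limits on UMIs and genes also left out the limit of 0.9. It held 74784 nuclei, 46222 of them excitatory-like. Classes came from 174 marker genes: nuclei with clear marker UMIs gave rates for each class, and each nucleus took its most probable class. A name needed 3 markers raised 2-fold and at least 1 own marker among the 10 leading genes, with no other list of its level holding more. L6 IT and dentate gyrus nuclei had markers of other lists among these genes. Sums per animal and class were rounded and tested with edgeR 4.0.16 (TMM, filterByExpr, quasi-likelihood, genotype only, R 4.3.3) and DESeq2 1.42.0. Animals needed 10 nuclei in a class. Single levels were tested with exact permutation tests. The labels do not say that replicate numbers mark litters, and in 0 of 6 same-numbered WT and Het pairs was the correlation of deviations over 0.1.

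Named genes were the 4 members in each class, Myt1l, genes of the list with an unadjusted p under 0.05 (chosen after their values were seen, since none was called) and the 5 genes most similar to each member, of which 1 is not reported here. The members, lists and class rules were set with earlier results of these data known. Gene positions came from the GENCODE vM21 annotation. On simulated counts for L6 CT nuclei (7656 genes), 88.9% of genes changed by 1 and 36.6% of genes changed by 0.5 on the log2 scale were called, and for astrocyte-like nuclei (941 genes) 36.1% and 3.88%. There were 15 false calls beside 88 and 37 true ones in L6 CT, and 2 beside 35 and 4 in astrocyte-like nuclei. The tdTomato row was left out of library sizes and tests.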

Additional observations from a re-analysis of the deposited data

Results flagged for a closer look

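In 9 of 176 groups of 6 animals, 1 animal lay far from the others of its genotype by Dixon's gap test, which chance alone flags in about 1 of 20 groups. Nfib in all nuclei was 356 CPM in Het female 2, with the nearest other Het animal at 391. Nfia in GABAergic nuclei was 44.4 CPM in WT male 2 (nearest 68.5), and Nfib in oligodendrocyte-like nuclei was 259 CPM in Het male 2 (nearest 235). Nfix in L2/3 IT nuclei was 88.5 CPM in WT male 3 (nearest 71.5), the WT animal that overlapped the Het range. Nfix in L5 NP nuclei was 83.4 CPM in Het male 2 (nearest 121) and Nfix in CA1 nuclei was 89.7 CPM in Het female 2 (nearest 114). Nfib in CA1 nuclei was 388 CPM in Het male 3 (nearest 433). Nfib in Sst nuclei was 528 CPM in WT male 2 (nearest 188) and 52.9 CPM in Het female 2 (nearest 169).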

How the results depend on the processing

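Nfix in excitatory nuclei kept its direction under all alternatives run. It fell below the call with a log2 fold change of 0.24 (adjusted p = 0.0899) without upper limits on UMIs and genes (which also left out the limit on log genes over log UMIs) and 0.29 (adjusted p = 0.0902) under a stricter class assignment, so that 0 member-class pairs were called in place of 1. Leaving out single animals gave 0.30 to 0.36, and 0 to 1 calls. The animals whose removal ended the call were WT male replicate 2, WT female replicate 3, Het male replicate 3 and Het female replicates 1, 2 and 3. With the replicate number within sex as a block the value was 0.32 (adjusted p = 0.0423) and the call held, and the block changed no other call of a member. Same-numbered animals correlated at -0.61 to 0.08 in their deviations, and 1 of 12 animals correlated best with its own number. In all nuclei the number of members called rose from 0 to 1 with DESeq2 and without a filter on low counts, and stayed 0 when single animals were left out. Without a filter 1 list gene (Mmd2) was called, and 0 in the fits that left out single animals. With no upper limits 44 in place of 4 of 80 neighbouring steps in level passed. No difference of the genotype effect between classes passed under any alternative, with 0 in each. Over all classes and alternatives, signs turned in 47 of 360 values for Nfia (12 classes), 42 of 438 for Nfib (13), 10 of 99 for Nfic (3) and 4 of 286 for Nfix (2), with 0 called among them. These include Nfix in GABAergic nuclei without upper limits (-0.030), Nfia in excitatory nuclei under stricter assignment (-0.019) and without WT male replicate 1 (-0.033 in a range up to 0.11), and Nfib in excitatory nuclei, which ranged from -0.031 to 0.0080 when single animals were left out (0.0080 and 0.0061 without WT female replicate 2 and Het female replicate 2). Calls over all genes moved more: from 16 in excitatory nuclei to 81 with DESeq2, 151 without a filter, 70 without upper limits and 32 without doublet removal, from 0 in all nuclei to 28, 29 and 4 under the first 3 of these, and from 36 in GABAergic nuclei to 131 without a filter, 18 without upper limits, 13 with the replicate block and 0 under stricter assignment. In L2/3 IT nuclei 7 calls became 21 with DESeq2, 34 without a filter and 2 with the block, and in L6 CT nuclei 51 became 89 without a filter and 126 without upper limits. The causes were not tested. Nfic had too few UMIs for a test in most classes.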
